A study of Homo sapiens with 9 samples.

Results

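Microtubules are hollow tubes built from dimers of alpha-tubulin and beta-tubulin, and each of these proteins is encoded by several genes, called isotypes. The 10 tubulin genes described here are 4 alpha isotypes (TUBA1A, TUBA1B, TUBA1C and TUBA4A), 5 beta isotypes (TUBB, TUBB2A, TUBB2B, TUBB4B and TUBB6) and the gamma-tubulin gene TUBG1. They were taken by symbol from the 35876 gene symbols of the count table, and all 10 passed the filter on low counts.

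Expression was measured by RNA sequencing in HEK293, a human cell line made from embryonic kidney, in a series on a chemically induced, reversible knockout system. The 9 libraries form 3 groups of 3 replicates. The genotype labels are CC_Cas9 (called Cas9 here), CC_Cas9_Cre (Cre) and CC_Cas9_Flpo (Flpo). All groups share Cas9, an RNA-guided DNA nuclease, and a prefix, CC, whose meaning the labels leave out. Cre and Flpo are site-specific recombinases. The labels give no chemical, dose, time, promoter or clone. Nothing in them says that replicates were separate cultures, so p-values measure only the spread between these libraries, which may be technical. A library is named by its group and replicate number, as in Flpo 2.

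Alpha- and beta-tubulin isotypes share most of their sequence and differ mainly in a short, acidic tail at the end of the protein, where motors and other microtubule-binding proteins make contact. Gamma-tubulin does not enter the tube wall; it sits at the start of a microtubule and templates its growth. Cells also control tubulin mRNA through the protein: the first residues of a newly made alpha- or beta-tubulin chain are read by TTC5 (with SCAPER), which recruits the CCR4-NOT deadenylase to degrade the mRNA when free tubulin dimers are abundant. In dividing cells TUBA1B, TUBA1C, TUBB and TUBB4B are broadly expressed isotypes, while TUBB2A, TUBB2B and TUBA1A are best known from neurons.

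The last 60 coding bases are shown for the 5 beta genes because that stretch separates the isotypes and shows which genes the counting could confuse. They come from GENCODE release 29 transcripts (GRCh38), 5′ to 3′ and without the stop codon, and the capitals mark GAA and GAG codons, which encode glutamate.
TUBB: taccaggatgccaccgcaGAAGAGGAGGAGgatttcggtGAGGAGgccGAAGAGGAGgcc
TUBB2A: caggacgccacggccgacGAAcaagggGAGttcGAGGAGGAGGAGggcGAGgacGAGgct
TUBB2B: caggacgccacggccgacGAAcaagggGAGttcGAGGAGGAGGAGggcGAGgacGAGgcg
TUBB4B: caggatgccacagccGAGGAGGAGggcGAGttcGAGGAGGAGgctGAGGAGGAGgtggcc
TUBB6: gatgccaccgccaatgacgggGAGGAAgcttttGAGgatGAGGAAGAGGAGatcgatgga

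The tails of TUBB2A and TUBB2B were 98.3% identical over these 60 bases, and their whole coding sequences were 98.2% identical. TUBB and TUBB4B matched at 84.4% of the coding sequence and at 74.6% of the tail, and TUBB2A and TUBB6 at 86.2% and 59.1%. Of the 20 codons in the tail, glutamate took 10 in TUBB4B, 9 in TUBB, 8 in TUBB2A and TUBB2B, and 7 in TUBB6. Among the alpha genes, the whole coding sequences of TUBA1A and TUBA1B were 97.2% identical and those of TUBA1B and TUBA1C 96.8%. The gamma gene TUBG1 was 49.9% to 54.3% identical to the other members. The first 12 coding bases, which encode the residues read in the control of tubulin mRNA, are shown for 2 alpha and 2 beta genes.
TUBA1B: atgcgtgagtgc
TUBA4A: atgcgtgaatgc
TUBB: atgagggaaatc
TUBB2B: atgcgtgagatc

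In GENCODE release 29 (GRCh38), TUBA1A lies on chromosome 12 from 49184796 to 49189324, TUBA1B on chromosome 12 from 49127782 to 49131397, and TUBA1C on chromosome 12 from 49188736 to 49274603. TUBA1A is on the minus strand and its annotated span overlaps that of TUBA1C on the plus strand. Whether the counting used strand is not given in the sources used here. It is therefore not known whether reads from the overlap were told apart by strand. TUBA4A lies on chromosome 2 from 219249711 to 219278170, where it overlaps TUBA4B. TUBB (30720201 to 30725426), TUBB2A (3153669 to 3157526) and TUBB2B (3224261 to 3231730) are on chromosome 6. TUBB4B lies on chromosome 9 from 137241213 to 137243707, TUBB6 on chromosome 18 from 12307669 to 12344320, and TUBG1 on chromosome 17 from 42609676 to 42615234. The deposited counts are given per gene symbol and give no position within the gene.

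Sequence words of 31 bases were compared among all annotated transcripts to show where reads could be split. TUBA1B shared 72.2% of its words with some other gene, and TUBA1A supplied the largest part, 50.03%. TUBB2A shared 70.0%, with TUBB2B holding 63.7% of its words, and TUBB shared 31.6%, mostly with the pseudogene TUBBP1. TUBA1A shared 51.6%, TUBB2B 53.6%, TUBG1 39.7% and TUBA1C 35.1%. TUBB4B (19.7%), TUBA4A (11.9%) and TUBB6 (6.15%) were the most distinct. The split between TUBA1A and TUBA1B, and that between TUBB2A and TUBB2B, rest on the counting tool's apportioning of shared reads and are uncertain.

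Libraries differed widely in depth, and this touches every result below. Total estimated counts ran from 213907 in Cre 2 to 8833491 in Flpo 1, and all 3 Flpo libraries were deeper than any Cas9 or Cre library. Depth and group could therefore not be told apart over the 9 libraries. The biological coefficient of variation was 0.556. Of 10 markers for HEK293, 1 to 5 were at 0 in a library. PAX2 was at 0 in 8 of the 9 libraries, and VIM, KRT8 and KRT18 were detected in every library. A protocol label speaks of livers, but 5 of 6 hepatocyte markers were at 0 in 8 of the 9 libraries. In bulk RNA, fewer cells of a kind and less RNA per cell cannot be told apart.

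Levels are given as CPM, counts scaled to a common library total, after TMM scaling, edgeR's correction for differences in library composition. TUBA1B, the alpha isotype present in most cell types, stood at 301, 446 and 1120 CPM in Cas9 1, 2 and 3. In the Cre libraries it was 322, 1418 and 414 CPM, and in the Flpo libraries 7557, 1397 and 5647 CPM. Flpo 1 and Flpo 3 were far above the rest, while Flpo 2 lay just below Cre 2, so the Cre and Flpo groups overlapped. TUBA1C, a close relative of TUBA1B, was 42.4, 83.8 and 418 CPM in Cas9, 36.1, 224 and 70.4 in Cre, and 5089, 688 and 3546 in Flpo. All 3 Flpo libraries exceeded all others for this gene, Flpo 2 included. TUBA1A, an alpha isotype associated with developing neurons, was 338, 330 and 539 CPM in Cas9, 260, 1000.4 and 323 in Cre, and 1735, 290 and 1494 in Flpo. Its Flpo 2 value was below every Cas9 value. TUBA4A, an alpha isotype known from platelets and nerve and muscle tissue, was at 13.3, 10.9 and 20.3 CPM in Cas9. In Cre it was 13.2, 97.1 and 30.03 CPM, and in Flpo 496, 41.1 and 413 CPM. The Flpo values were all above the Cas9 values, and Cre 2 was above Flpo 2.

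Among the beta genes, TUBB, the general beta isotype of proliferating cells, stood at 939, 1196 and 2377 CPM in Cas9, 923, 2658 and 902 in Cre, and 23912, 2018 and 24968 in Flpo. Flpo 2 lay within the range of both other groups. TUBB4B, a widely expressed isotype that is also used in cilia, was 370, 804 and 1644 CPM in Cas9, 657, 836 and 291 in Cre, and 17262, 1458 and 19052 in Flpo. Every Flpo library was above every Cre library, and Flpo 2 was below Cas9 3.

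TUBB2A was 486, 117 and 242 CPM in Cas9, 239, 2878 and 684 in Cre, and 5638, 319 and 5861 in Flpo. TUBB2B, its near copy, was 259, 138 and 304 CPM in Cas9, 145, 1497 and 317 in Cre, and 2524, 202 and 2787 in Flpo. For both genes Cre 2 was the highest library outside Flpo 1 and Flpo 3, and all groups overlapped. TUBB6, a divergent beta isotype, was 98.1, 34.4 and 94.2 CPM in Cas9, 56.0, 623 and 162 in Cre, and 2023, 102 and 2077 in Flpo. Flpo 2 was above the highest Cas9 library by a small margin. TUBG1, the gamma-tubulin of the nucleating complex, was 29.1, 66.6 and 96.2 CPM in Cas9, 32.2, 44.8 and 24.9 in Cre, and 295, 66.7 and 331 in Flpo. The Flpo values were above all Cre values, and Flpo 2 was almost equal to Cas9 2.

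**Figure D1:**
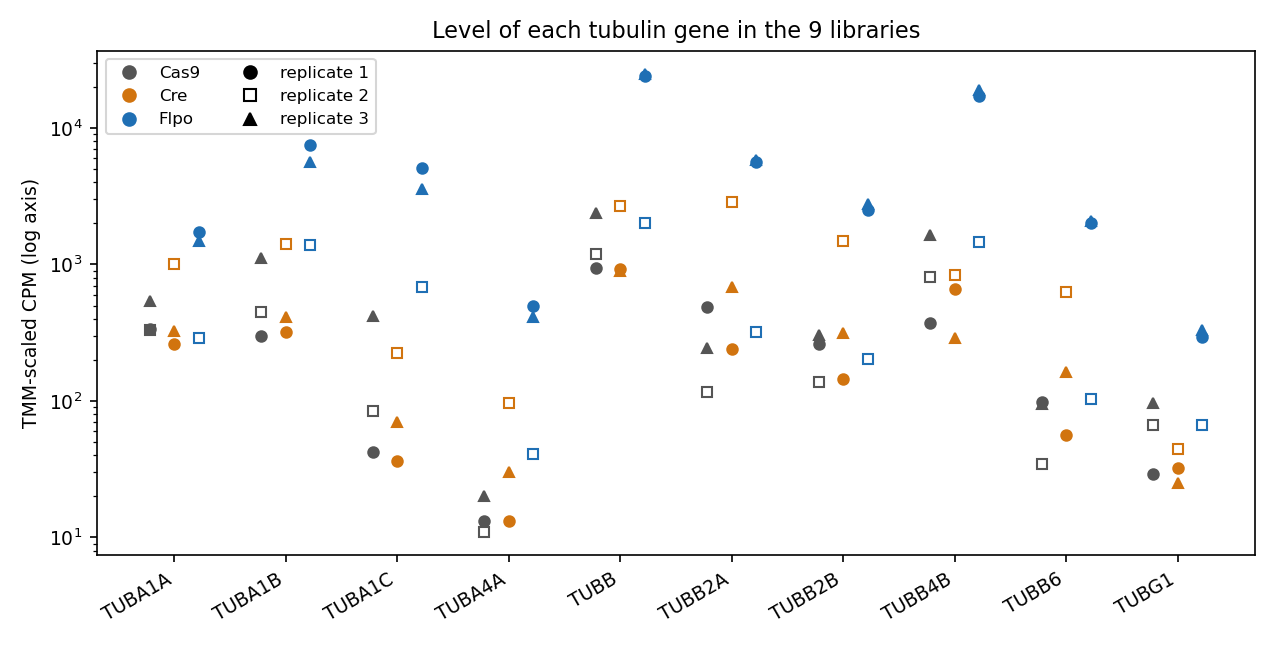
TMM-scaled CPM on a log axis for each of the 10 tubulin genes, with 1 point per library, colour for the group and shape for the replicate. Flpo 1 and Flpo 3 sit above the other 7 libraries for all 10 genes, while Flpo 2 lies near the Cas9 and Cre points for most of them, as for TUBB (2018 CPM against 23912 and 24968).

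The mean of Flpo 1 and Flpo 3 over the value in Flpo 2 ran from 4.69 for TUBG1 to 20.0 for TUBB6. In Flpo 2 itself, TUBA1C was 3.80 times the Cas9 mean, TUBA4A 2.78 times and TUBA1B 2.25 times. TUBB stood at 1.34 times that mean, TUBG1 at 1.04 times, TUBB2B at 0.865 and TUBA1A at 0.719. Within the Cre group, Cre 2 exceeded the mean of Cre 1 and Cre 3 for all 10 genes, by 1.57 times for TUBG1 and 6.48 times for TUBB2B. Together the 10 members held 0.348%, 0.342% and 0.638% of all counts in Cas9 1, 2 and 3. They held 0.324%, 1.41% and 0.421% in the Cre libraries and 4.37%, 0.516% and 4.91% in the Flpo libraries. The members as a group thus separated Flpo 1 and Flpo 3 from all 7 other libraries.

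Isotype composition was described as each gene's share of the summed level of the 4 alpha or the 5 beta isotypes named above, after dividing counts by transcript length, so that these shares compare genes per length. Other alpha and beta genes of the table, TUBB3 among them, are not in these sums. The length used was the median over protein-coding transcripts with a complete coding sequence. TUBA1B was the leading alpha isotype on average, with 49.8% ± 5.39 in Cas9, 51.5% ± 1.16 in Cre and 54.4% ± 3.88 in Flpo (SD, n = 3 each). The planned length, the median over all protein-coding transcripts, counts many incomplete models and moved these shares to 63.4%, 63.8% and 69.6%. Only in Cas9 1 was TUBA1A ahead of TUBA1B, at 48.9% against 43.8%, and with the planned length TUBA1B led there too (56.7% against 37.8%).

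TUBA1A and TUBA1C took the opposite order in the Flpo group from that in the other groups. TUBA1A held 48.9%, 38.1% and 25.9% of the alpha sum in Cas9 and 41.4%, 36.9% and 39.0% in Cre, against 11.9%, 12.1% and 13.7% in Flpo. TUBA1C held 5.96%, 9.31% and 19.4% in Cas9 and 5.57%, 8.003% and 8.18% in Cre, against 33.7%, 27.8% and 31.4% in Flpo. All 3 Flpo libraries lay outside the range of the other 6 for both genes, and Flpo 2, whose tubulin levels were low, had alpha shares next to those of Flpo 1 and Flpo 3. Group means were 37.6% ± 11.5, 39.1% ± 2.23 and 12.6% ± 0.999 for TUBA1A in Cas9, Cre and Flpo, and 11.5% ± 6.97, 7.25% ± 1.46 and 30.97% ± 2.95 for TUBA1C (SD, n = 3 each). With the planned length the TUBA1C means were 6.44%, 3.95% and 17.5%, and with the longest transcript they were 7.34%, 4.50% and 20.7%. The gap between Flpo and the rest remained under both, with a lowest Flpo share of 15.3% and 18.3% against a highest share elsewhere of 10.8% and 12.5%. These shares have no test, because a share of members depends on the other members. Cas9 3, the deepest library outside Flpo, was also the closest to Flpo in both shares, and the part of depth in this difference was not tested. TUBA4A held 0.683% to 2.66% of the alpha sum in every library.

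Of the beta sum, TUBB held 36.1% ± 4.59, 26.4% ± 6.20 and 33.8% ± 1.93 in Cas9, Cre and Flpo, and TUBB4B held 36.3% ± 13.8, 21.4% ± 15.6 and 41.7% ± 1.79 (SD, n = 3 each). TUBB4B was at 40.1%, 43.7% and 41.4% in Flpo, but ran from 20.4% to 44.4% in Cas9 and from 10.8% to 39.3% in Cre, so Flpo was above every Cre library and within the Cas9 range. The groups overlapped in the share of TUBB, TUBB2A and TUBB6. TUBB2B stood at 4.76%, 4.91% and 4.91% in the Flpo libraries and at 6.16% to 15.7% in the other 6, without overlap. TUBB2A ran from 6.64% in Cas9 2 to 38.3% in Cre 2. TUBB6 ran from 3.44% to 14.7%. Its share depends on the length chosen, since its median complete transcript is 902.5 bases and its longest 2064 bases. With the longest transcript the TUBB6 means were 2.76%, 5.57% and 3.46% in place of 5.94%, 11.6% and 7.43%. With all 10 alpha and 9 beta genes of the table in the sums, an alternative added after the data were seen, TUBB2A held 25.7% in Cre 2, where the neuronal isotype TUBB3 was the largest beta gene at 28.6%. With the longest transcript these were 34.9% and 16.1%, so the order of TUBB2A and TUBB3 depends on the length. TUBA1A and TUBA1C kept their gap between Flpo and the other 6 libraries in the wider alpha sum, at 11.8% to 13.6% against 25.8% to 48.5% and at 27.7% to 33.5% against 5.53% to 19.3%.

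**Figure D2:**
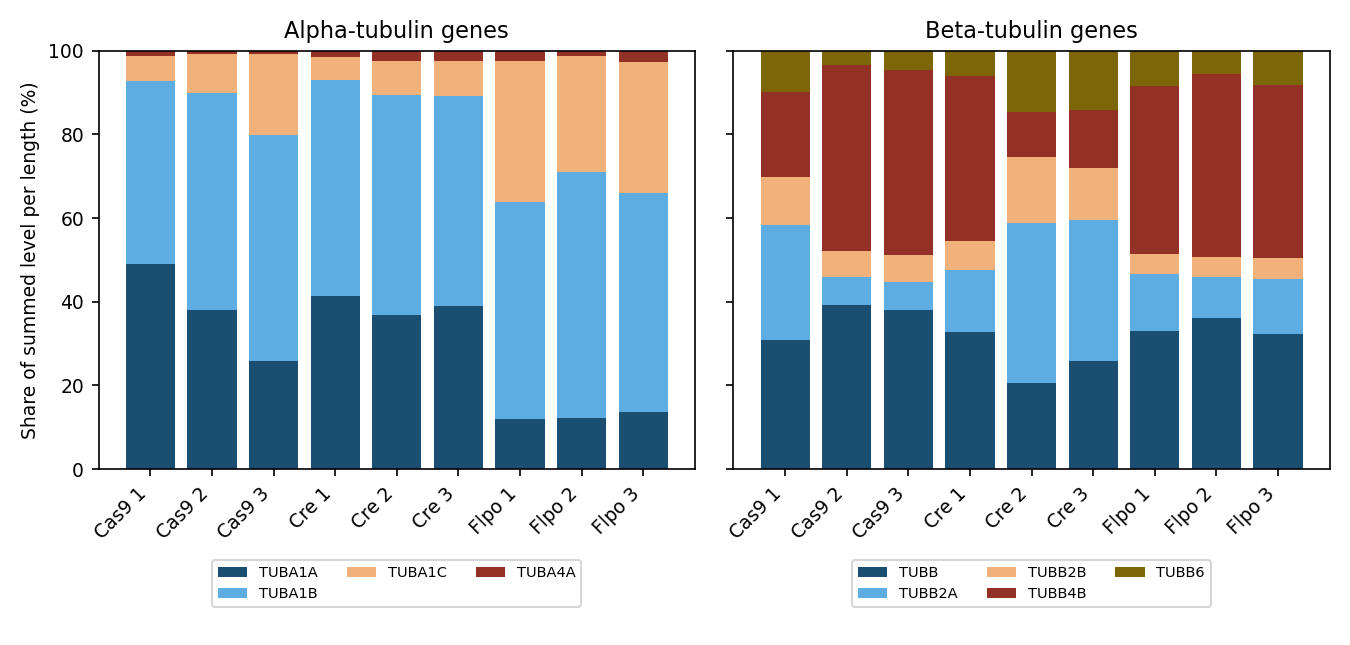
Stacked bars give the share (%) of each alpha gene (left) and each beta gene (right) in the summed level per length of the 4 alpha or 5 beta isotypes, with 1 bar per library. The 3 Flpo bars share a small TUBA1A part (11.9% to 13.7%) and a large TUBA1C part (27.8% to 33.7%), whereas the TUBB2A part is largest in Cre 2 (38.3%), Cre 3 (33.7%) and Cas9 1 (27.5%).

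Summed alpha over summed beta, per length, was 0.381, 0.480 and 0.559 in Cas9, 0.376, 0.352 and 0.398 in Cre, and 0.339, 0.716 and 0.237 in Flpo. The group means were 0.473 ± 0.0894, 0.375 ± 0.0232 and 0.431 ± 0.252 (SD, n = 3 each), and the Flpo group held both the highest and the lowest library. Per kilobase of transcript, the order of mean levels in Cas9, here CPM of library totals without TMM scaling, was TUBB4B (577 ± 334), TUBB (561 ± 214), TUBA1B (385 ± 224), TUBA1A (257 ± 46.7), TUBB2A (196 ± 153), TUBB2B (123 ± 44.2), TUBA1C (104 ± 109), TUBB6 (89.7 ± 46.0), TUBG1 (40.4 ± 17.1) and TUBA4A (6.66 ± 1.58) (CPM per kb, SD, n = 3). Neighbours in that order overlapped between libraries, except that TUBA4A lay below TUBG1 in all 3 Cas9 libraries without overlap. In Flpo the order per length began with TUBB4B (5420 ± 4179), TUBB (4347 ± 3306), TUBA1B (2099 ± 1257) and TUBB2A (1735 ± 1382), and the ranges of these neighbours overlapped. In Cre it began with TUBB2A (1001 ± 1108), TUBB (682 ± 459), TUBA1B (555 ± 468) and TUBB4B (452 ± 206), and these too overlapped. TUBG1 and TUBA4A were last in Cre and Flpo as well, with 26.4 ± 7.59 and 25.3 ± 23.8 CPM per kb in Cre and 102 ± 62.1 and 95.0 ± 70.4 in Flpo.

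Cre against Cas9 gave no called member by edgeR. With edgeR's quasi-likelihood test and Benjamini-Hochberg adjustment over all 11905 genes tested, 0 of 10 members and 0% of all genes had an adjusted p under 0.05. At an unadjusted p under 0.05 there were 0 members and 879 genes (7.38%), and DESeq2 called 0 members and 4 genes. The values were 2.17 ± 1.14 (log2 fold change ± SE) for TUBB2A, 1.87 ± 1.04 for TUBB6, 1.52 ± 0.88 for TUBA4A and 1.47 ± 0.99 for TUBB2B. For TUBG1 the value was -0.96 ± 0.65 and for TUBA1C -0.76 ± 1.01. The smallest adjusted p of a member was 0.619 by edgeR. The median over the members was 0.29, against -0.22 over all genes tested. Without Cre 2 the TUBB2A value moved to 0.71, TUBB6 to 0.53 and TUBB2B to -0.01. With all 9 libraries limma voom with sample quality weights called 4 members, TUBB2A, TUBB2B, TUBB6 and TUBG1. The share of all genes called by that fit is not given here.

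Flpo against Cas9, which uses the same Cas9 libraries as controls, gave large positive values that did not pass the test. By edgeR 0 of 10 members were called, and 0.227% of all genes were. All 10 values were positive, with a median of 3.62 against 0.05 over all genes tested. TUBA4A stood at 4.40 ± 0.93 (adjusted p = 0.059), TUBB6 at 4.21 ± 1.14 (0.089), TUBA1C at 4.09 ± 1.12 (0.091) and TUBB2A at 3.81 ± 1.22 (0.119). TUBB4B was at 3.74 ± 1.16, TUBB at 3.50 ± 1.19, TUBB2B at 2.97 ± 1.05 and TUBA1B at 2.97 ± 0.97. TUBG1 (1.84 ± 0.64) and TUBA1A (1.54 ± 0.77) had the smallest values. At an unadjusted p under 0.05 there were 9 members, all but TUBA1A, beside 20% of all genes. The Flpo and Cas9 libraries did not overlap for 4 members, TUBA1B, TUBA1C, TUBA4A and TUBB6, all higher in Flpo, and 12.8% of all genes did the same. The count of calls depended on Flpo 2 and on the tool. Without Flpo 2 edgeR called 9 members, beside 21.3% of all genes. With all 9 libraries DESeq2 called 8 members, beside 9.02% of all genes it tested. Without a filter edgeR called 8 members, and limma voom with sample quality weights called 10. The shares of all genes called by the unfiltered and voom fits are not given here. Their counts are therefore not read as a result about the members.

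Cre against Flpo gave 4 called members, all lower in Cre. TUBA1C fell by 4.86 ± 1.17 on the log2 scale in Cre relative to Flpo (edgeR, adjusted p = 0.0201), TUBB4B by 4.41 ± 1.20 (0.0269), TUBA4A by 2.88 ± 0.89 (0.0393) and TUBG1 by 2.80 ± 0.68 (0.0201). Of all genes tested, 20.5% were called in either direction and 14.3% were called lower. TUBB (-3.51 ± 1.19, adjusted p = 0.0517) and TUBA1B (-2.77 ± 0.96, 0.0559) fell just short. TUBB6 was at -2.34 ± 1.05, TUBB2A at -1.64 ± 1.12, TUBB2B at -1.50 ± 0.99 and TUBA1A at -1.16 ± 0.77, with adjusted p from 0.117 to 0.279. All 10 values were negative, with a median of -2.79 against -0.34 over all genes tested. With library totals in place of TMM scaling the median of all genes moved to 0.44, all 10 members stayed negative, and 3 were called. The groups did not overlap for TUBA1C, TUBB4B and TUBG1, beside 27.9% of all genes lower in Cre without overlap. The count of calls depended on single libraries: 0 members were called without Cre 2, Cre 3 or Flpo 1, 1 without Flpo 3, 2 without Cas9 2 and 7 without Flpo 2 (beside 44.1% of all genes). With log2 total count as a covariate, 0 members were called, and the values were -4.75 for TUBA1C, -3.38 for TUBB4B, -4.38 for TUBA4A and -1.89 for TUBG1. Apart from the fit without Flpo 2, the shares of all genes called by these alternative fits are not given here. Their counts describe the setting only and are not read as a result about the members. With 1 library left out, the values ran from -5.84 to -4.30 for TUBA1C, from -4.93 to -4.01 for TUBB4B, from -3.86 to -2.41 for TUBA4A and from -3.25 to -2.48 for TUBG1.

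The 3-group test, for a difference in any direction, called the same 4 genes, TUBA4A (adjusted p = 0.0218 by edgeR), TUBA1C (0.0231), TUBG1 (0.0350) and TUBB4B (0.0351), beside 9.51% of all genes. TUBB6 followed at 0.0523, TUBB at 0.0590 and TUBA1B at 0.0608. It called 9 members without Flpo 2, 2 without Cre 2 and 0 without Cas9 2, Cre 3, Flpo 1 or Flpo 3. The shares of all genes called in these fits are not given here.

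**Figure D3:**
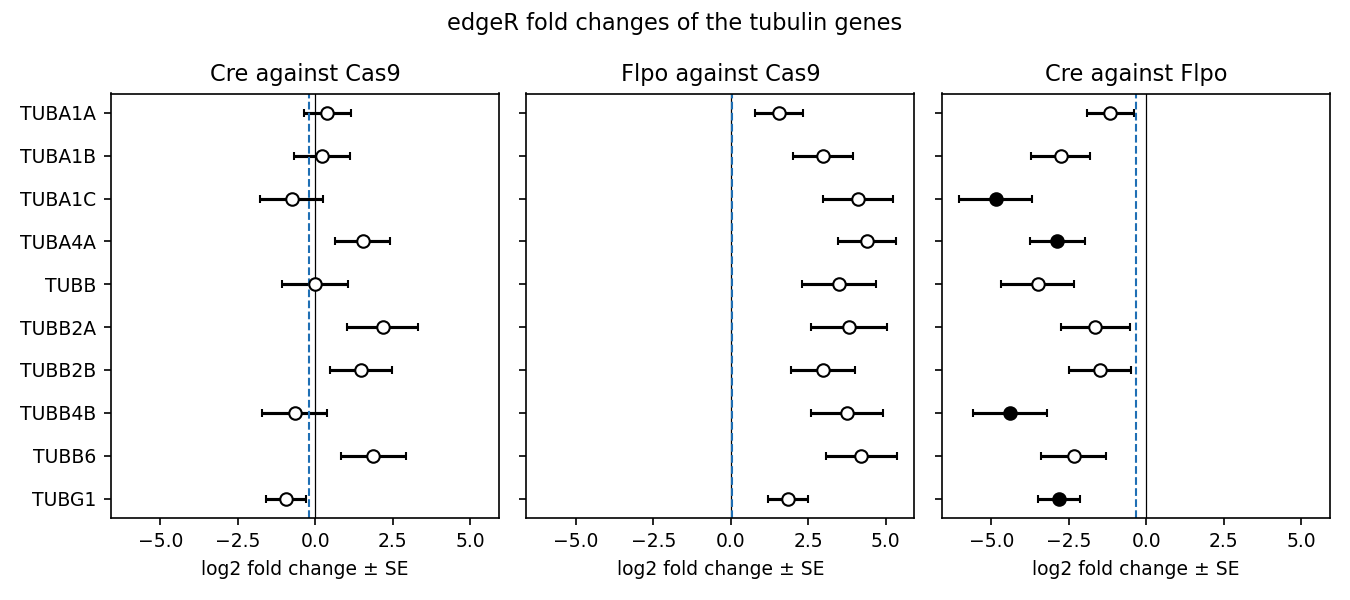
edgeR log2 fold changes with SE (approximated from the F statistic) for the 10 genes in the 3 comparisons. Filled points have an adjusted p under 0.05 (TUBA1C, TUBA4A, TUBB4B and TUBG1 in Cre against Flpo only), and the dashed line is the median of all genes tested (-0.22, 0.05 and -0.34).

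The members did not all follow depth alike. TUBB had 712 counts in Cre 2, the shallowest library, and 138605 and 156399 in Flpo 1 and Flpo 3, the deepest. TUBB4B had 224 counts in Cre 2 and 100058 and 119339 in Flpo 1 and Flpo 3. TUBB2A had 585, 204 and 848 counts in Cas9, 491, 771 and 797 in Cre, and 1249 in Flpo 2, against 32680 and 36714 in Flpo 1 and Flpo 3. Its count thus differed little between Cre 2 and Cas9 3, whose total was 3761779. TUBBP1, a pseudogene that shares words with TUBB, had 44.1 to 208 counts over the 9 libraries, of which Cre 2 held 204. Tubulin pseudogenes together (39 symbols) made up 7.78% of tubulin counts in Cre 2 and 0.514% in Flpo 3.

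**Figure D4:**
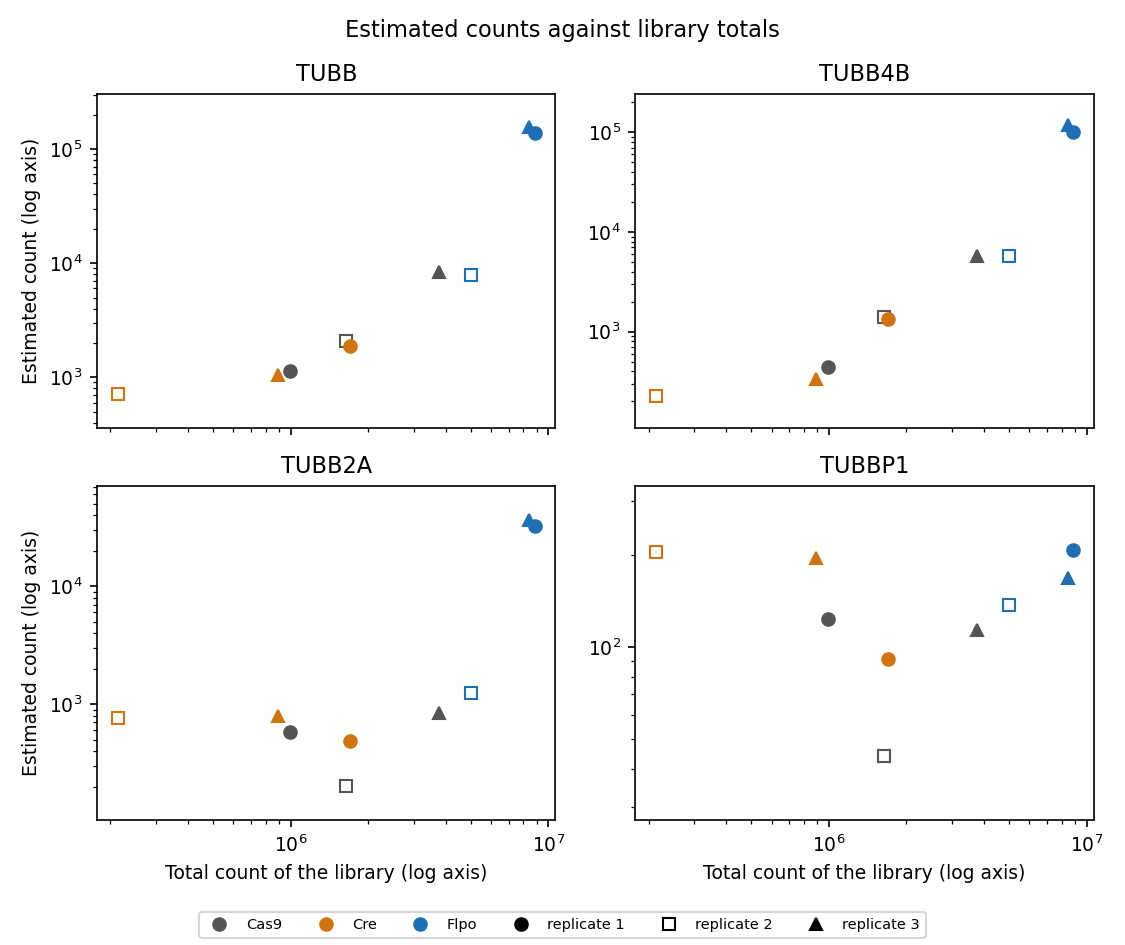
Estimated count of TUBB, TUBB4B, TUBB2A and the pseudogene TUBBP1 against the total count of the library, both on log axes, with 1 point per library. TUBB and TUBB4B are higher in deeper libraries, TUBB2A is between 204 and 1249 counts in all libraries but Flpo 1 and Flpo 3, and TUBBP1 stays between 44.1 and 208.

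In the Cas9 and Cre libraries the share of TUBB2A was mostly higher where fibroblast markers were higher, but the Flpo libraries did not follow. The markers were COL1A1, COL3A1, LUM and DCN, 4 of 4 above 0 in every library, though LUM had only 2 counts in Cre 3. Most of their counts came from COL1A1 and COL3A1. In Cre 2 these had 437 and 232 counts, against 4 for LUM and 12 for DCN. The summed CPM of the 4 markers (of library totals) was 3204 in Cre 2, 730 in Cre 3, 455 in Cas9 1, 318 in Cre 1, 153 in Cas9 2 and 136 in Cas9 3. The TUBB2A share of the beta sum in the same libraries was 38.3%, 33.7%, 27.5%, 14.7%, 6.64% and 6.67%. In Flpo the marker sum was 93.7 to 97.0 CPM and the share 9.82% to 13.5%. The lowest marker sums thus went with shares above those of Cas9 2 and Cas9 3. As raw counts the 4 markers summed to 251 to 852 in every library. The part of these markers, or of depth, in the TUBB2A share was not tested. Of 4 blood markers, 1 to 3 were at 0 in a library, and their sum was 5.88 to 56.7 CPM. Nearly all of that sum was CD68, as in Flpo 3 (56.7 CPM), while PTPRC, HBB and CD3E were at or close to 0.

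**Figure D5:**
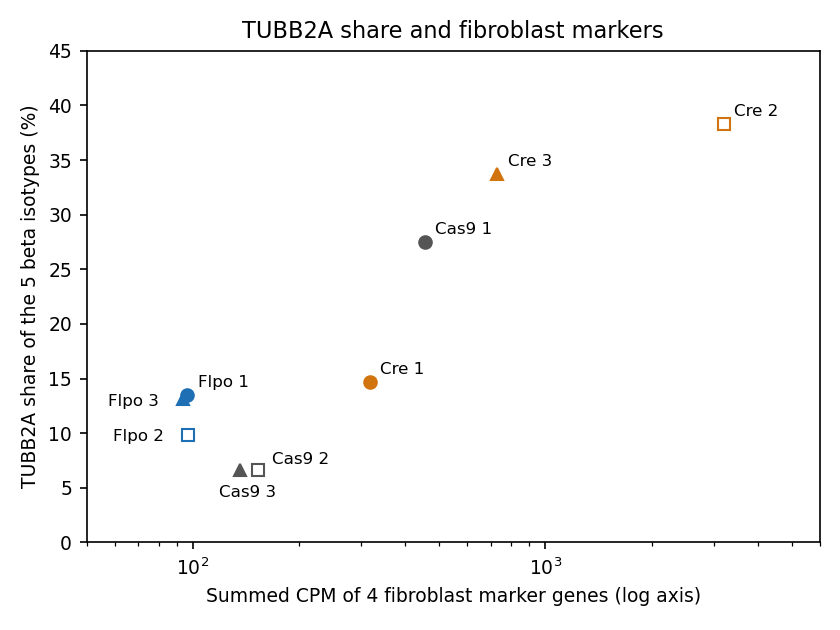
TUBB2A share of the summed level per length of the 5 beta isotypes (%) against the summed CPM of 4 fibroblast markers on a log axis, with 1 labelled point per library. Cre 2 is highest on both axes (3204 CPM, 38.3%), and the 3 Flpo libraries lie together at 93.7 to 97.0 CPM.

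Across the 9 libraries the log2 levels of the members were correlated in all 45 pairs, with Pearson r from 0.60 (TUBB2A and TUBG1) to 0.99 (TUBB2A and TUBB6) and a median of 0.90. These are descriptions over 9 points that share library depth and the group structure. TUBB2A and TUBB2B (0.98) and TUBB2B and TUBB6 (0.99) were close, as were TUBB4B with TUBG1 (0.98), TUBB4B with TUBB (0.98) and TUBA1B with TUBA1C (0.98). TUBA1A and TUBA1B were at 0.89. Of 7697 tested genes with a mean of at least 50 counts, those most like TUBA1B were MINOS1 (0.99), LRRC59 (0.99) and RPN1 (0.99). The genes most like TUBB were DNAJC9, FAM118A and MYL12B, each at 0.99.

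The promoters of the members were also searched for CCAAT, a common promoter box. Both strands were read in the 300-base windows around the start sites given by RefSeq (GRCh38.p14). All 10 members matched, with 14 windows. The letters stood in 9 of the 14 windows, from 7 members, and an overlapping pair of TUBA1C windows held the same copy. Of 35116 promoter windows, 34.6% held the letters, a share that compares with windows and not with genes. TUBB4B had the most, 3 copies, and its 250 bases before the start site are shown with the copies in capitals (GRCh38.p14, chr9:137241037-137241286, plus strand).
TUBB4B: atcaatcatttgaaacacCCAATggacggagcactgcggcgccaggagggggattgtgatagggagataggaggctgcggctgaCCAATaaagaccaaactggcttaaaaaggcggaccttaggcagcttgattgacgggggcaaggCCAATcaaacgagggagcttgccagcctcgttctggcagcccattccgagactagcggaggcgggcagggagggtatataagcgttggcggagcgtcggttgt
A match is a description of these letters only; no binding was measured.

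The rest of the tubulin system is described by 8 lists with 128 genes. By edgeR no gene of any list was called in Cre against Cas9 or in Flpo against Cas9. At an unadjusted p under 0.05 there were 7 and 24 of 109 tested genes (6.42% and 22%, beside 7.38% and 20% of all genes). DESeq2 called 0 and 6 of them (0% and 5.5%, beside 0.0339% and 9.02% of all genes it tested). In Cre against Cas9 the smallest p of a list belonged to TUBB3 (2.20 ± 1.03), PFDN1 (-1.86 ± 0.80), CNOT11 (-2.34 ± 0.82), HAUS4 (-2.59 ± 0.99), VASH1 (-1.62 ± 0.73), STMN1 (-0.75 ± 0.66), MAP7D1 (-0.94 ± 0.55) and DYNC1LI1 (-1.11 ± 0.64). In Flpo against Cas9 it belonged to TUBA8 (3.66 ± 0.86), VBP1 (2.67 ± 0.74), CNOT8 (2.57 ± 0.83), HAUS5 (1.75 ± 0.63), TTLL3 (-1.62 ± 0.53), KIF18A (1.86 ± 0.62), MAPRE1 (1.37 ± 0.56) and KIF5B (1.62 ± 0.59). The counts that follow are for Cre against Flpo. There edgeR called 19 of the 109 tested list genes, beside 20.5% of all genes. DESeq2 called 34 list genes (31.2%, beside 33.7% of all genes it tested). The lists as a whole thus held no larger share of called genes than the table. Among 13 other tubulin genes, 6 were tested. TUBA8, an alpha isotype of heart, muscle and testis, fell by 4.62 ± 1.02 in Cre on the log2 scale (edgeR, adjusted p = 0.0178). TUBA8 had only 2, 1 and 3 counts in Cre, against 394, 29 and 432 in Flpo, so the size of its fall is uncertain. Delta-tubulin TUBD1, a centriole protein, rose by 1.93 ± 0.59 (edgeR, adjusted p = 0.0371). TUBD1 had 143, 52.8 and 36.0 CPM in Cas9, 99.4, 138 and 239 in Cre, and 36.2, 52.4 and 37.0 in Flpo. All Cre libraries were above all Flpo libraries for this gene in CPM. Its estimated counts overlapped, at 204, 37.4 and 279 in Cre and 210, 205 and 232 in Flpo. They did not follow the library totals, and the part of those totals in this difference was not tested. The neuronal isotype TUBB3 followed TUBB2A, with 1646 CPM in Cre 2 and 1101, 99.2 and 1188 CPM in Flpo, and was not called.

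Of the 13 genes for tubulin folding, which code for the prefoldin complex and the cofactors that join alpha to beta, 11 were tested and 4 fell in Cre. The largest were the prefoldin subunit VBP1 (-3.88 ± 0.85, adjusted p = 0.0175 by edgeR), the cofactor TBCC (-3.87 ± 0.98, 0.0227) and the prefoldin subunit PFDN1 (-3.49 ± 0.83, 0.0197). TBCC averaged 2.36 CPM in Cre, while 3 counts stood for 1.46, 11.2 and 2.57 CPM in Cre 1, 2 and 3. The size of its fall is therefore uncertain. The list's median was -2.05, against -0.34 over all genes. All 12 genes of the mRNA control pathway were tested and 3 fell, the CCR4-NOT subunits CNOT11 (-3.18 ± 0.82, 0.0234), CNOT8 (-3.002 ± 0.91, 0.0371) and CNOT9 (-2.53 ± 0.69, 0.0268). CNOT11 and CNOT8 averaged 2.16 and 2.07 CPM in Cre, so the sizes of their falls are uncertain in the same way. The list's median was -1.15. TTC5 and SCAPER were not called.

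Of 20 genes for nucleation, 19 were tested, 2 rose and 2 fell. MZT1, a small subunit of the gamma-tubulin ring complex, fell by 4.11 ± 0.99 (adjusted p = 0.0202 by edgeR). MZT1 averaged 0.773 CPM in Cre, while 3 counts stood for 1.46, 11.2 and 2.57 CPM in Cre 1, 2 and 3. The size of its fall is therefore uncertain. The augmin subunit HAUS5 fell by 2.03 ± 0.64 (adjusted p = 0.0428 by edgeR). Another augmin subunit, HAUS3, rose by 2.07 ± 0.64 (0.0395). The other gene that rose, chosen for naming after its value was seen, was TUBGCP6, a subunit of the gamma-tubulin ring complex (1.56 ± 0.45, adjusted p = 0.0315 by edgeR). The ring complex subunits TUBGCP2 (0.23), TUBGCP4 (0.23) and TUBGCP5 (0.24) were not called. The list's median was -0.15.

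Among 23 genes for tubulin-modifying enzymes 19 were tested and 1 was called, TTLL9, which rose by 3.48 ± 0.93 (adjusted p = 0.0255 by edgeR). The list's median was 0.55, on the other side of the median of all genes from the members. Of 12 severing and depolymerising genes 9 were tested and 1 fell, STMN1 (-2.20 ± 0.69, 0.0403), whose product binds free tubulin dimers. None of the 17 tested of 19 binding genes was called. The smallest p there was that of MAPRE1, a plus-end protein, at -1.52 ± 0.58 (adjusted p = 0.0752, and 4 genes had an unadjusted p under 0.05). All 16 transport motor genes were tested and 4 fell, among them the dynactin subunit DCTN4 (-2.67 ± 0.75, 0.0301), the kinesin-1 heavy chain KIF5B (-2.64 ± 0.63, 0.0201) and the dynein light chain DYNLL1 (-2.34 ± 0.64, 0.0277). The medians of these last 3 lists were -0.59, -0.21 and -0.23. Against 20.5% of all genes called in either direction, the called counts per list ran from 0 of 17 to 4 of 11.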

How the data were processed

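The annotation, the use of strand and any filter before deposit are not given in the sources used here. RNA was taken with TRIzol and libraries were made with a TruSeq RNA kit, per the labels' protocols. Salmon 0.14.1 and the build hg38 are named in the submitters' processing notes. The authors deposited 1 table that gives, for each gene symbol and each of 9 libraries, an estimated count that is not normalized. The design assumed whole counts; the estimated counts were rounded for the tests.

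The tests used edgeR 4.0.16 in R 4.3.3, with quasi-likelihood, TMM scaling and filterByExpr (minimum count 10, minimum total 15), on all 9 libraries, with Benjamini-Hochberg adjustment over 11905 genes and a threshold of 0.05. Another 23971 genes were not tested. Standard errors are the log2 fold change over the square root of F. The members and lists were chosen with earlier results of these data known. The rule named all members, per list up to 3 called genes with the largest change (or the 1 with the smallest p), and the 3 genes most like TUBA1B and TUBB.

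Annotation and transcripts were those of GENCODE release 29, and promoters those of RefSeq. The corresponding coding ends of the alpha genes are not reported here. The length in the composition departs from the plan, which was the median over all protein-coding transcripts: transcripts with incomplete coding sequence were left out after the annotation and the tubulin counts had been seen, and the planned length is printed beside the shares. Alternatives used DESeq2 1.42.0, limma 3.58.1 (voom with sample quality weights), no TMM, no filter, a replicate block, a depth covariate, thinning, composition sums over all alpha and beta genes, and fits without each library. Scripts were tested on simulated data with a smaller spread between libraries than in these data. A floor of 3 counts was 0.479 CPM in Flpo 3 and 11.2 CPM in Cre 2. Floors cover counting error only, since the reads carry no molecular identifiers.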

Additional observations from a re-analysis of the deposited data

Results flagged for a closer look

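The difference between the Cre and the Flpo effect, each measured against the same Cas9 libraries, passed the test for 4 genes, and equals the Cre against Flpo contrast. The Cre effect minus the Flpo effect was -4.856 for TUBA1C, -4.406 for TUBB4B, -2.878 for TUBA4A and -2.804 for TUBG1 on the log2 scale (edgeR, adjusted p = 0.0201, 0.0269, 0.0393 and 0.0201). With 3 libraries per group, single libraries were not screened as outliers.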

How the results depend on the processing

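Most counts of called genes depended on the setting, and the causes were not tested. Counts without the share of all genes called by the same fit describe the setting only. They are not read as a result about the members. For Cre against Cas9 the count of members called was 0 in every fit but limma voom with sample quality weights, which called 4. For Flpo against Cas9, where edgeR called 0, DESeq2 called 8, edgeR without a filter 8 and limma voom 10, and leaving out 1 library gave 0 to 9, the highest without Flpo 2. For Cre against Flpo, with 4 called, edgeR without a filter called 7, limma voom 10, the fit of only the 6 libraries compared 2 and the depth covariate 0, and leaving out 1 library gave 0 to 7. For any difference among the 3 groups, with 4 called, the counts were 9 (DESeq2), 9 (no filter), 10 (limma voom) and 0 (depth covariate), and 0 to 9 with 1 library left out. A fit without both Cre 2 and Flpo 2, added after the data were seen, called 10 members in Flpo against Cas9, 10 in Cre against Flpo and 10 in the 3-group test, beside 2966, 5141 and 3717 of all genes. The number of genes tested in that fit is not given here, so no share can be read from these counts. With the replicate number as a block the counts were 0 for both comparisons with Cas9, 2 for Cre against Flpo and 0 for the 3-group test. Deviations of same-numbered libraries correlated from -0.55 to 0.53, so the numbers were not taken to pair the libraries. Every library thinned to the smallest total by a binomial draw gave 4 members for Cre against Flpo and 3 for the 3-group test. The first version of that thinning, edgeR's thinCounts, gave 0 for both, and was replaced after both results were seen; its TMM factor for Flpo 1 was 1.07, against 0.74 with binomial thinning and 0.66 at full depth. Among single genes, no alternative listed here changed a sign for Flpo against Cas9, and 1 value did so for Cre against Flpo (TUBB2B, 0.22 with thinCounts). For Cre against Cas9, where no member was called by edgeR, 21 values did. TUBB was 0.072 with DESeq2, 0.29 without TMM, 0.15 with the replicate block, 0.10 with limma voom, 0.0058 with binomial thinning and 0.46 with thinCounts. With the depth covariate TUBA1A was -0.17 and TUBA1B -0.16, and without both Cre 2 and Flpo 2 TUBA1A was -0.46, TUBA1B -0.75 and TUBB2B -0.015. With 1 library left out the ranges were -0.46 to 0.66 for TUBA1A, -0.75 to 0.92 for TUBA1B, -1.76 to 0.75 for TUBA1C, -0.71 to 0.47 for TUBB, -0.013 to 1.89 for TUBB2B and -1.06 to 0.0050 for TUBB4B. The TUBA1B share of the alpha sum in Cas9, Cre and Flpo was 55.8%, 56.6% and 64.3% with the longest transcript and 63.4%, 63.8% and 69.6% with all protein-coding transcripts. With all alpha genes of the table in the sum and the longest transcript it was 55.5%, 55.7% and 63.9%. The TUBB4B share of the beta sum in Flpo was 34.7% without division by length, 44.4% with the longest transcript and 38.3% with all beta genes of the table in the sum. Leaving out Cas9 libraries moved the TUBB4B share in Cas9 to 32.2% to 44.3%, and leaving out Cre libraries moved the TUBB2A share in Cre to 24.2% to 36.0%. In Cre 2 a count of 0 allows 11.2 CPM, and differences under that were not detectable there.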
